A study of Homo sapiens with 4 samples.

Results

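The genes described here are the suppressors of cytokine signalling, SOCS1 to SOCS7 and CISH, together with JAK2 and STAT3, in SUM149 cells exposed to Ricolinostat (ACY1215), an inhibitor of the histone deacetylase HDAC6. The members were all probes that the annotation of the array assigns to these 10 genes, which gave 11 probes for 10 of 34755 genes on the array. The set was chosen by the log2 change of SOCS2 from untreated cells, among the largest of the array at 12 h, so the values of SOCS2 are a description and support nothing further. SUM149 is an established cell line from an inflammatory breast cancer. The cells attached to 6-well plates and were then either left untreated or given 2.5 uM of Ricolinostat for 3, 6 or 12 h. RNA of each of the 4 conditions was hybridised to 1 two-colour Agilent array, with the sample in the Cy5 channel and a common reference in the Cy3 channel. With 1 array per time point there is no replicate, conditions were not tested against each other, and every value is as precise as 1 array allows, the number of arrays being the limit. Vehicle-treated cells at 3, 6 or 12 h were not analysed here, so the effects of the drug, of its solvent and of the time in culture cannot be told apart.

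Cytokines and hormones that bind receptors without a kinase of their own signal through Janus kinases, of which JAK2 is one. The kinases phosphorylate the receptor and then transcription factors of the STAT family, such as STAT3, which enter the nucleus and switch on target genes. The SOCS proteins close this circuit. Several of them are products of STAT target genes, bind the activated receptor or kinase through an SH2 domain, and recruit an elongin and cullin ubiquitin ligase through the SOCS box. In breast epithelium the pathway is known for its roles in the response to prolactin and in the growth of tumours that make IL6.

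Markers were read as well above background or not, a limit that did not tell epithelial markers from those of other cell types. All 5 epithelial markers (EPCAM, CDH1, KRT8, KRT18 and KRT19) and all 4 basal markers (KRT5, KRT14, KRT17 and EGFR) were well above background in Cy5 on the 4 arrays, and the summed Cy5 signal of the epithelial markers lay between 92017 and 117861 scanner units. Of the hormone receptors ESR1 was well above background on all 4 arrays, at 172 to 262 units, and PGR on none. The authors list SUM149 as negative for both receptors, so ESR1 was not absent by this limit as the listing would have it. Markers of leukocytes (4 of 4) and of fibroblasts and endothelium (3 of 4, all but COL3A1) also passed this limit. Their summed signals were 1142 to 1526 and 643 to 777 units, and their part in the results was not tested. The leukocyte marker CD14 alone read 770 to 1150.5 units. Of the basal markers, KRT14 read 487 to 1012 units, EGFR 537 to 975.5 units, and KRT5 and KRT17 4493 units or more. The reference is labelled as a mixture of all the SUM149 samples. A mixture of the samples would lie between them at each gene, apart from dye bias, but on 10 of the 11 member probes the ratio of Cy5 over Cy3 stayed on 1 side of 0 (log2) on all 4 arrays, as it did for 73.3% of 18925 genes, and by at least 2-fold throughout for 11.6%. Dye bias of single probes also enters these shares and was not tested. Each ratio is set against that of untreated cells, so that the content of the shared reference drops out, beside the change of the Cy5 channel alone. The Cy3 signal of the reference still differed between arrays and enters the ratio changes. From the untreated array it changed by -0.45 to 0.22 (log2) on the member probes outside damaged areas. Parts of 2 arrays carried defects, with 3.38% of spots of the untreated array and 4.71% of spots of the 3 h array in damaged areas, against 0.199% at 6 h. The technical SD of a log2 change, taken between repeated spots of 1 probe at the intensities of the members, was 0.12 at 3, 6 and 12 h. It covers neither the culture nor the labelling, and between different probes of 1 gene the SD was larger, at 0.21, 0.26 and 0.25.

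On all 4 arrays, the 11 probes were well above background in Cy5 and in Cy3. SOCS2 had 1 probe, STAT3 had 2 and every other member had 1, each printed as a single spot. On the untreated array the SOCS2 spot lay in a damaged area, so 9 of the 10 members have a value outside damaged areas. None of these 9 differed from untreated cells by 2-fold at any time. Genes at least 2-fold higher made up 1.1% of 19801 genes at 3 h, 2.7% of 19234 genes at 6 h and 2.23% of 19391 genes at 12 h, and genes at least 2-fold lower 0.283%, 0.853% and 1.01%, so a count of 0 among 9 members is near the background and is not a result about the members. At 1.5-fold 0 members were higher at 3 h (5.32% of all genes), and 1 member, STAT3, was higher at 6 h (9.13%) and at 12 h (7.89%). At the same limit 0 members were lower, against 1.81%, 4.29% and 4.94% of all genes at 3, 6 and 12 h. These counts depend on the processing, and over 7 settings 0 to 2 members were 1.5-fold higher at each time and 0 or 1 lower at 3 h and 6 h. SOCS3 (0.70) and CISH (0.66) passed at 3 h with median centring, JAK2 at 6 h and 12 h with a normexp offset of 1 (0.74 and 0.60), and SOCS6 at 3 h with the same offset (-0.60). STAT3 no longer passed at 6 h and 12 h with median centring (0.55 and 0.49) or in Cy5 alone (0.34 and 0.36).

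The smaller differences from the untreated array were mostly upward, and all of them share that array as their base. Of the 9 members, 6 had a log2 change above 0 at 3 h, 8 at 6 h and 8 at 12 h, where 9900 of 19801 genes did at 3 h and 52.6% of genes at 6 h and at 12 h. The median change of the members was 0.16 at 3 h, 0.41 at 6 h and 0.22 at 12 h on the log2 scale, against medians of all genes of 0.00, 0.01 and 0.01. In the Cy5 channel alone the medians were 0.11, 0.30 and 0.20, and 7, 8 and 6 members were above 0, where the medians of all genes were 0.01, -0.02 and -0.01 and 53.0%, 46.2% and 47.9% of genes were above 0. When each array was centred on its median in place of loess, the median of all genes moved to -0.16 at 12 h, with 29.1% of genes above 0, and the members, 5 of 9 above 0, then had a median of 0.0085. Changes over 2 technical SDs (0.23, 0.24 and 0.23) were found for 5, 7 and 4 of the 9 members at 3, 6 and 12 h. Of all genes, 32.1%, 40.8% and 41.5% passed these limits. With the 3 h array as the base, chosen after seeing the data, the median change of the members was 0.078 at 6 h and 0.017 at 12 h.

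**Figure D1:**
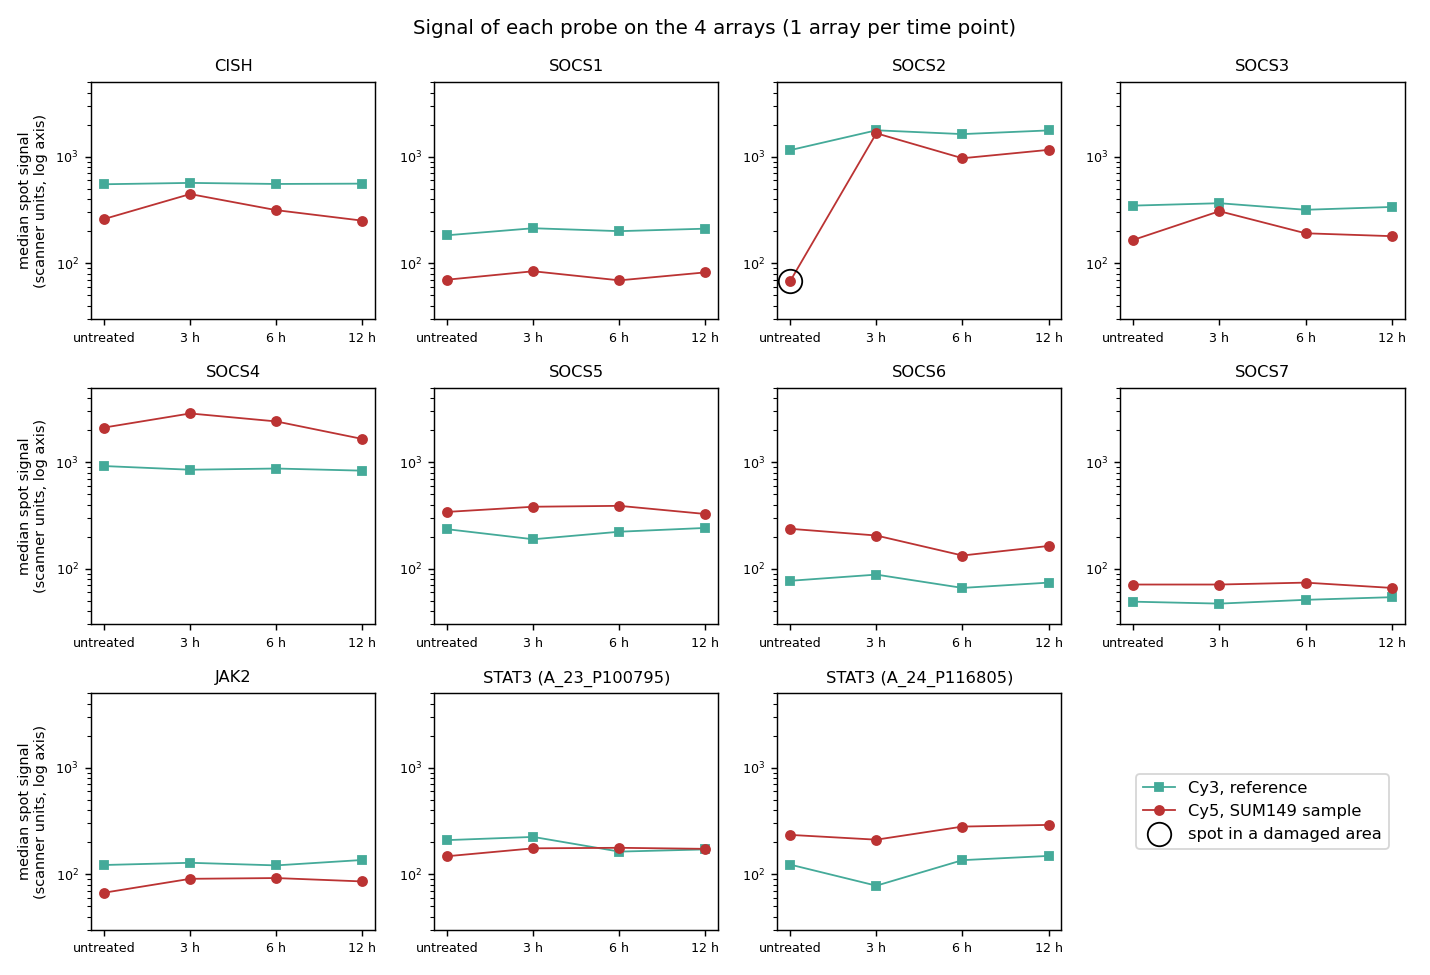
Median spot signal of the 11 member probes on the 4 arrays, before background correction and normalization (scanner units, log axis). Circles are the Cy5 sample, squares the Cy3 reference, and the open ring marks the SOCS2 spot on the untreated array, in a damaged area, where Cy5 was 68 units against 968 to 1661 units on the treated arrays.

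SOCS2 encodes the family member best known as the brake on growth hormone signalling. Its single probe, A_23_P128215 (NM_003877), had a Cy5 signal of 68 units on the untreated array, 1661 units at 3 h, 968 units at 6 h and 1161 units at 12 h. The untreated array was the low one, and among the treated arrays 3 h was the highest. The Cy3 signal of the same spot was 1154 units on the untreated array and 1772, 1632 and 1767 units on the 3, 6 and 12 h arrays, so the untreated array was also the lowest in the reference, which should not differ between arrays. The normalized log2 ratio was -3.70 in untreated cells and -0.73, -0.99 and -0.69 in treated cells, a change of 2.97 at 3 h, 2.71 at 6 h and 3.01 at 12 h. In Cy5 alone the change was 3.71, 3.27 and 3.65, and the reference itself changed by 0.73, 0.56 and 0.64.

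The neighbours of this spot on the slide were measured in the same way. Of the 86 spots in the window of 13 rows and 7 columns around SOCS2, 18 (20.9%) were defective on the untreated array, by an outlier flag or a Cy3 signal over 2-fold from the median of the arrays, against 1, 0 and 0 spots on the 3, 6 and 12 h arrays. The SOCS2 spot carried no outlier flag. Of the 44 other spots in the window that were above background on the treated arrays, 44 were lower in Cy5 on the untreated array than the mean of the treated arrays, and 18 of them by at least 2-fold. These spots were not required to be above background on the untreated array, a choice that favours lower values there. Their median log2 difference was -0.93, from -3.77 to -0.08, and the difference of SOCS2 was -3.54, with 2 neighbours as low or lower. In Cy3, 41 of the 44 were lower, by a median of -0.50, and SOCS2 by -0.64. The same 44 spots on the 3 h array, set against the other treated arrays, were lower in 25 cases and by 2-fold in 0 cases, with a median of -0.02. On the 3 h array the spots had to be above background, so they were not selected alike for both comparisons.

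**Figure D2:**
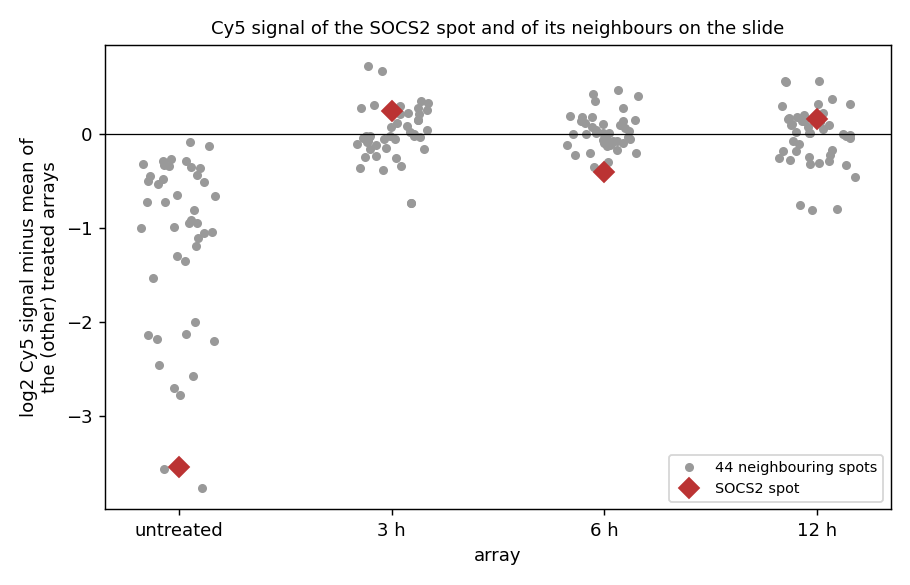
Log2 Cy5 signal of the SOCS2 spot (diamond) and of 44 neighbouring spots (circles) on each array, minus the mean of the treated arrays, or of the other treated arrays where the array is itself treated. On the untreated array all 44 neighbours lay below 0, with a median of -0.93, and SOCS2 lay at -3.54 among the lowest of them, while on the treated arrays the neighbours were spread around 0. The neighbours had to be above background on the treated arrays but not on the untreated array.

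No other probe of SOCS2 was on the array, so the comparison with untreated cells rests on this spot, and how much of the difference the defect makes up was not tested. The treated arrays were free of damage there and can be compared with each other. On them the log2 ratio of SOCS2 at 6 h was -0.26 from that at 3 h (-0.43 in Cy5 alone), and at 12 h it was 0.31 above that at 6 h (0.38 in Cy5 alone) and 0.04 above that at 3 h (-0.06 in Cy5 alone). The ratio between 3 h and 12 h differed by less than the technical SD of 0.11 for that pair of arrays. This depends on the centring, since with median centring the 12 h value of SOCS2 was -0.42 from that at 3 h, where the median of all genes was -0.26.

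CISH, the first SOCS protein to be described and a classical target of STAT5, was measured by A_23_P144096 (NM_145071). Its Cy5 signal was 260 units in untreated cells, 446 units at 3 h, 315 units at 6 h and 251 units at 12 h, over a Cy3 signal of 552, 568, 555 and 559 units. The 3 h array was the highest and the reference hardly differed. The log2 change was 0.50 at 3 h (1.41-fold), 0.41 at 6 h and 0.25 at 12 h, and 0.61, 0.40 and 0.20 in Cy5 alone. Each of these ratio changes was over 2 technical SDs, and the 12 h change was 0.0085 under median centring of the arrays. At 3 h, 7.02% of all genes measured were at least as high. Between the treated arrays the 12 h ratio was -0.25 from the 3 h ratio and -0.15 from the 6 h ratio.

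The upstream region of CISH is shown because STAT proteins bind the letters TTCNNNGAA, a motif that reads the same on both strands and recurs there. The RefSeq table of promoters (GRCh38.p14), which covers 250 bases before to 50 bases after a start site, held 7 of the 10 members in 11 entries. SOCS2, SOCS5 and SOCS7 were not among them. Capitals mark each match in the first 160 bases of the CISH window, on the minus strand at chr3:50611865-50612024.
CISH promoter: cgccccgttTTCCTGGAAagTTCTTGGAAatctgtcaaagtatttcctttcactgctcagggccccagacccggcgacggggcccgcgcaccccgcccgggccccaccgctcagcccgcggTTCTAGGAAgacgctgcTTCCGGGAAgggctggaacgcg
The 4 matches, TTCCTGGAA, TTCTTGGAA, TTCTAGGAA and TTCCGGGAA, begin 241, 230, 129 and 112 bases before the annotated start site. Of 35116 promoter windows in the table, 7.66% held at least 1 match and 7 windows, 0.0199%, held 4 or more. The windows of SOCS1, SOCS3, SOCS4, SOCS6, JAK2 and STAT3 held 0 matches. The same letters with a spacer 1 base longer were found in 6.44% of all windows and in 0 of the member windows. A match is a description of the letters and says nothing of binding in these cells.

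SOCS3, which is induced by STAT3 and blocks the IL6 receptor subunit gp130 together with its JAK, followed a course close to that of CISH. Its probe A_23_P207058 (NM_003955) had Cy5 signals of 166 units in untreated cells, 308 units at 3 h, 191 units at 6 h and 180 units at 12 h, and Cy3 signals of 348, 366, 318 and 338 units. The 3 h array was again the highest. The log2 change of the ratio was 0.54 at 3 h (1.45-fold), 0.45 at 6 h and 0.41 at 12 h, and that of Cy5 alone 0.67, 0.29 and 0.30. Over the processing alternatives that keep the untreated array as the base, the 3 h change ran from 0.51 to 0.70 and the 12 h change from 0.20 to 0.50. Set against the 3 h array the 12 h ratio was -0.13. Of all genes, 6.36% were at least as high at 3 h and 13.5% at 12 h.

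SOCS1, the strongest inhibitor of interferon signalling in the family, was dim, with Cy5 signals of 70, 84, 69 and 82 units in untreated cells and at 3, 6 and 12 h on A_23_P420196. Its log2 change was -0.11 at 3 h, 0.00 at 6 h and 0.21 at 12 h, all within 2 technical SDs. With a normexp offset of 1 the 12 h change was 0.38, with the software's log ratio 0.42 and with median centring 0.05. No separate technical SD was taken under these settings, so whether these values exceed technical error was not tested. The 3 h value changed sign between the ratio and Cy5 alone, which gave 0.11, and no direction can be given for it.

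Of the 4 members with less studied roles in cytokine signalling, SOCS4 to SOCS7, SOCS4 and SOCS5 were higher at 3 h and 6 h. SOCS4 and SOCS5, a pair of close relatives that act on EGFR, had Cy5 signals of 2117, 2873, 2418 and 1655 units (A_33_P3349334) and of 342, 382, 390 and 327 units (A_24_P328492) on the untreated, 3, 6 and 12 h arrays. Both were highest at 3 h or 6 h, and at 12 h both raw signals were below that of untreated cells. The log2 change of SOCS4 was 0.40 at 3 h, 0.47 at 6 h and 0.19 at 12 h, and in Cy5 alone 0.33, 0.40 and -0.02. For SOCS5 it was 0.33, 0.41 and 0.22, and in Cy5 alone 0.07, 0.30 and 0.16, so that at 3 h much of the ratio change of SOCS5 came from its Cy3 channel, which was -0.26 from the untreated array. With median centring the 12 h values turned to -0.14 for SOCS4 and -0.01 for SOCS5, where the median of all genes was -0.16.

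SOCS6 was the only member lower than in untreated cells at 3, 6 and 12 h, in the ratio and under each of the other processing settings run on this base. The protein is an adaptor that binds receptor tyrosine kinases such as KIT. The Cy5 signal of A_23_P207981 was 237 units in untreated cells and 205, 133 and 164 units at 3, 6 and 12 h, and its Cy3 signal was 77, 88, 66 and 74 units. The 6 h array was the lowest in both channels. The log2 change was -0.38 at 3 h, -0.41 at 6 h and -0.16 at 12 h, and in Cy5 alone -0.24, -0.60 and -0.30. The 3 h change was -0.60 with a normexp offset of 1 and -0.69 with the software's log ratio. At 3 h 5.43% of all genes, and at 6 h 8.71%, were at least as low. SOCS7, an adaptor with a reported role in insulin signalling, had Cy5 signals of 71, 71, 74 and 66 units on A_24_P367211 and log2 changes of 0.00, 0.11 and 0.02, each below the technical SD.

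**Figure D3:**
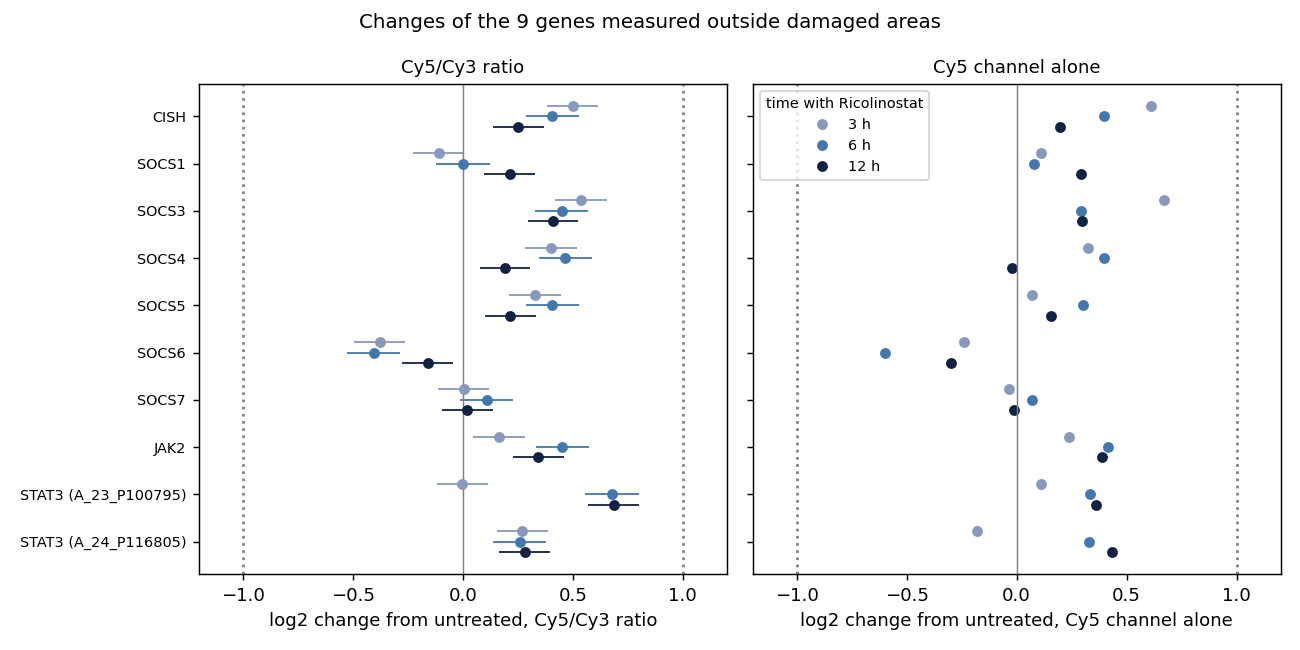
Log2 change from the untreated array of the 10 probes outside damaged areas, in the ratio of Cy5 over Cy3 (left) and in Cy5 alone (right), at 3, 6 and 12 h (light to dark). Bars are 1 technical SD between repeated spots (0.12) and cover neither culture nor labelling, and dotted lines mark 2-fold, which no point reached in either panel. SOCS2, whose spot was damaged on the untreated array, is left out.

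JAK2, the kinase of the receptors for growth hormone, prolactin and erythropoietin, had Cy5 signals of 67 units in untreated cells and 90.5, 92 and 85.5 units at 3, 6 and 12 h on A_33_P3878772. All 3 treated arrays were above the untreated one, and the Cy3 signal ran only from 121 to 136 units. The log2 change was 0.16 at 3 h, 0.45 at 6 h and 0.34 at 12 h, and in Cy5 alone 0.24, 0.42 and 0.39. The probe was dim, and the offset of 50 units added in the background correction shrinks changes of dim probes: with an offset of 1 the changes were 0.28, 0.74 and 0.60, and with the software's log ratio 0.49, 0.95 and 0.81. With median centring the changes of JAK2 were 0.25, 0.37 and 0.20, where the medians of all genes were 0.07, -0.08 and -0.16.

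STAT3, the transcription factor downstream of IL6 and its relatives, was the only member with more than 1 probe, and both are annotated to NM_213662. On A_23_P100795 the Cy5 signal was 148 units in untreated cells and 175, 177 and 173 units at 3, 6 and 12 h, and the Cy3 signal was 209, 224, 163 and 171 units. The raw Cy5 signals of the treated arrays were close to each other, while the reference was higher on one pair of arrays (untreated and 3 h) than on the other pair (6 h and 12 h). On A_24_P116805 Cy5 was 234, 211, 280 and 291 units, and Cy3 was 123, 78, 136 and 149 units, with the 3 h array lowest in both channels.

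The pair of STAT3 probes gave different courses in the ratio and closer ones in Cy5 alone. The ratio of A_23_P100795 changed by 0.00 at 3 h, 0.68 at 6 h and 0.69 at 12 h, in this ratio the largest of any member outside damaged areas at these later times. With the software's own log ratio JAK2 was higher (0.95 and 0.81) than STAT3 (0.52 and 0.74), and in Cy5 alone SOCS6 at 6 h (-0.60) differed more. That of A_24_P116805 changed by 0.27, 0.26 and 0.28. In Cy5 alone the changes were 0.11, 0.34 and 0.36 on the first and -0.18, 0.33 and 0.44 on the second probe. Both probes therefore had higher Cy5 at 6 h and 12 h, by 0.33 to 0.44, and differed in sign at 3 h. The 1.5-fold level of STAT3 at 6 h and 12 h rests on A_23_P100795, whose Cy3 reference was -0.34 and -0.32 from the untreated array, and it was not reached by A_24_P116805 or by Cy5 alone on either probe. With median centring A_23_P100795 was at 0.55 and 0.49, also below that level.

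In the ratio, members other than STAT3 differed by less than 1.5-fold between the treated arrays. Of all genes, 0.444% rose at least as much as STAT3 from 3 h to 6 h and 1.32% from 3 h to 12 h. From 3 h to 6 h and from 3 h to 12 h the only member past 1.5-fold was STAT3 on A_23_P100795, higher by 0.68 and 0.69 (0.776% and 2.18% of all genes were at least 1.5-fold higher), and 0 members passed 2-fold (0.0715% and 0.328% higher, 0% and 0.147% lower) or were 1.5-fold lower (0.332% and 2.05%). In Cy5 alone these STAT3 changes were 0.22 and 0.25, with the reference at -0.46 and -0.44, and with median centring they were 0.44 and 0.38, so the 1.5-fold level was lost. With median centring CISH (-0.65) and SOCS4 (-0.67) were over 1.5-fold lower at 12 h than at 3 h, as were 16.9% of all genes, whose median was then -0.26. From 6 h to 12 h 3 of 9 members had a change above 0, where 49.0% of all genes did. These were SOCS1 at 0.21, SOCS6 at 0.25 and STAT3 at 0.01. The other 6 lay between -0.04 (SOCS3) and -0.27 (SOCS4). None of these changes reached 2-fold (0.0672% of all genes higher and 0.0568% lower) or 1.5-fold (0.46% higher and 1.09% lower). Over 2 technical SDs were 2 of 9 members from 3 h to 6 h (20.4% of all genes) and 3 from 3 h to 12 h (31.6%). From 6 h to 12 h there were 4 (34.8%).

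The rest of the pathway was read from 7 lists of other genes, 94 in all, of which 74 were measured at 12 h. Of these, 6 were at least 2-fold higher and 2 at least 2-fold lower at 12 h, against 2.23% and 1.01% of all genes. The same shares apply to the 12 h counts of each list below. The median of the 74 was 0.10, against 0.01 for all genes. With median centring 3 were higher and 3 lower, where the median of all genes was -0.16, and EPOR, IL11 and SH2B3 no longer reached 2-fold higher. The lists were chosen with these data known, so their counts are a description. Among cytokines and growth factors, 13 of 23 were measured at 12 h, of which 2 were higher and 1 was lower. IL6, the founding ligand of the STAT3 pathway, had Cy5 signals of 327 units in untreated cells and 270, 392 and 976 units at 3, 6 and 12 h on its brighter probe. Its signal was low at 3 h and highest at 12 h, with log2 changes of -0.36, 0.33 and 1.59. Its other probe was not well above background. CLCF1, another ligand that acts through gp130, went the other way, from 659 units to 167, 104 and 162 units, with log2 changes of -1.52, -1.62 and -1.27. IL11 (-0.06, 0.90 and 1.02) and LIF (-1.17, -1.13 and -0.35), named after their values were seen, are ligands of the same family. LIF was lower at 3, 6 and 12 h, with a second, dim probe at -0.09, -0.14 and -0.08, while IL11 was 2-fold higher at 12 h only, on the ratio.

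Of the receptors, 17 of 24 were measured at 12 h and 1 passed 2-fold, EPOR, the erythropoietin receptor, which signals through JAK2. Its Cy5 signal was 91 units in untreated cells and 191, 178 and 192 units at 3, 6 and 12 h. All 3 treated arrays lay together above the untreated one, at log2 changes of 0.84, 0.97 and 1.08, but with median centring the 12 h change was 0.93 and did not reach 2-fold. None of the other Janus kinases passed 2-fold, and JAK1, the partner of JAK2 at gp130, differed most at 12 h, at 0.54. Of the other STAT factors 5 of 6 were measured and 1 passed 2-fold. STAT6, which serves IL4 and IL13, had 1882, 1860, 974 and 627 units of Cy5 in the same order. The raw signal at 3 h was near that of untreated cells and the later arrays were lower. The log2 changes were -0.47, -0.95 and -1.43, and the 3 h change in Cy5 alone was -0.12.

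Among 10 measured genes of other pathway inhibitors, 1 was 2-fold higher at 12 h. This was SH2B3, an adaptor that binds JAK2 and restrains it, with 103, 262, 238 and 245 units of Cy5 and log2 changes of 0.88, 1.13 and 1.13. It was higher by a like amount on each treated array. The ligase CBL, named after its values were seen, was 2-fold higher at 3 h and 6 h (1.04 and 1.09), but in Cy5 alone its changes were 0.27 and 0.83. With median centring they were 1.11 and 0.97. None of the 7 genes listed as partners of the SOCS box ligase passed 2-fold, a list that also holds NEDD8, UBE2F and UBE2M. RNF7, the RING subunit of the ligase, differed most at 12 h, at -0.44, with its other probes at -0.31 and -0.64. In Cy5 alone it was at -0.71 and with median centring at -0.88.

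Of 20 known STAT3 target genes, 19 were measured at each time. At 12 h 2 were 2-fold higher and 0 lower in the ratio, against 2.23% and 1.01% of all genes. CCND1, named after its values were seen, was 2-fold lower at 12 h with median centring (-1.01). In the ratio it was at -0.69 and in Cy5 alone at -0.71. The median of the list was 0.17, against 0.01 for all genes. With median centring it was -0.04, against -0.16 for all genes. BCL6, a transcriptional repressor that STAT3 and STAT5 regulate, had Cy5 signals of 239, 939, 784 and 545 units and log2 changes of 1.66, 1.65 and 1.42. It was highest at 3 h and stayed above the untreated array. PIM1, a survival kinase, had 697, 1565, 1276 and 1177 units and changes of 1.07, 1.33 and 1.32. MYC and FOS, which like PIM1 were named after their values were seen, moved in opposite directions at 6 h, to -1.07 and 1.09, and were at -0.35 and 0.43 at 12 h. At 6 h they were at -1.14 and 0.90 in Cy5 alone, and at -1.35 and 0.95 with median centring. In all, 8, 8 and 12 of 19 targets were above 0 at 3, 6 and 12 h, and 10, 8 and 7 with median centring.

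**Figure D4:**
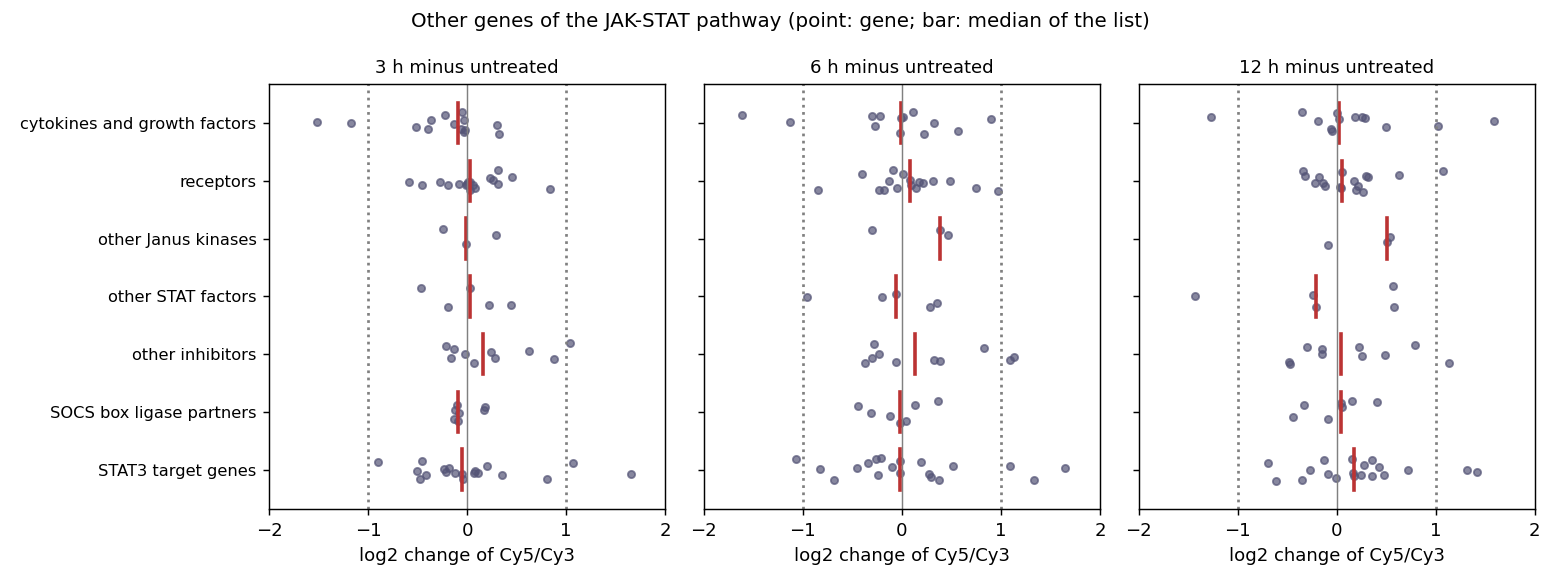
Log2 change of Cy5 over Cy3 from the untreated array for each measured gene of 7 lists of other JAK-STAT pathway genes at 3, 6 and 12 h. Points are genes, the vertical bar is the median of a list and dotted lines mark 2-fold, and most genes lay between the dotted lines at each time, with list medians at 12 h from -0.21 (other STAT factors) to 0.51 (other Janus kinases).

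Genes with the most similar course were found by the distance between their log2 changes at 3, 6 and 12 h, over 18916 genes measured outside damaged areas. The closest to STAT3 on A_23_P100795 were ENOX1 at a distance of 0.09 and GRB10 at 0.11. Their 12 h changes were 0.67 and 0.77, with 3 h changes of -0.01 and 0.01. For SOCS2 the closest were PRKRIP1 at a distance of 0.33, LINC00087 at 0.60 and GRHL1 at 0.79, a likeness that rests on the damaged SOCS2 spot of the untreated array. Each distance takes the same untreated array as its base.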

How the data were processed

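RNA of SUM149 cells, untreated or after 3, 6 or 12 h with 2.5 uM of Ricolinostat, was measured on 4 arrays, all on 1 slide. Groups were taken from the sample labels. Per the labels, 100 ng of RNA was labelled, with Cy5 for the sample and Cy3 for the reference. The authors deposited the scanner intensity of each spot and of its local background (Feature Extraction 12.0.1.1), a log10 ratio of both dyes (Cy5 over Cy3) that this software had background- and dye-corrected, and its flags of outliers and of signal well above background. A further deposited table holds normalized log2 ratios, with gene symbols, whose method is not given in the sources used here. On each array its values correlated at 0.994 or higher, over spots, with ratios made here at a normexp offset of 1, its direction is Cy5 over Cy3, and its column medians were 0.04 to 0.07.

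The median pixel intensity was corrected with normexp (offset 50), control spots were left out, outlier spots had weight 0, and arrays were normalized by loess and Aquantile (limma 3.58.1, R 4.3.3). This was tested on simulated data, made from the untreated array with noise, in which changes over 2-fold were planted in spots well above background. Changes as small as those of the 9 members outside damaged areas were not planted, so the test does not cover them. Each array had 62976 spots, 0 of them saturated, and a median Cy5 signal of 36 to 40 units over a background of 24. A damaged area is a window of 13 rows and 7 columns with at least 10% defective spots. A gene was represented by its probe with the highest mean Cy3 signal outside damaged areas of all arrays, and was measured where it was well above background in Cy5 and Cy3 of both arrays compared. Technical SDs came from probes with 9 or more spots. Tables were made in Python 3.11.15 with numpy 2.4.6 and pandas 2.3.3.

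Members and lists were chosen with earlier results of these data known. From each list the text names the largest rise and the largest fall at 12 h where they reach 2-fold, otherwise the largest change, and for SOCS2 and STAT3 the 3 genes of most similar course, of which 1 is not reported here. The elongin genes of the ligase list carry older symbols on the array. Alternatives covered the background correction, the centring, the software's log ratio, the authors' table, Cy5 alone, damaged areas, the probe of a gene, the filter on dim probes and the threshold. The 3 h array as the base and the counts at 1.5-fold under each setting were added after seeing the data. The arrays were designed on hg19 and promoters are from GRCh38.p14, so no array coordinates are given.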

Additional observations from a re-analysis of the deposited data

How the results depend on the processing

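Outside damaged areas, 0 of 9 members were 2-fold higher or lower at 3, 6 and 12 h under every alternative that changed the background correction, the centring, the log ratio, the channel, the probe of a gene or the filter on dim probes. Keeping damaged areas in made this count 1 higher at each of 3, 6 and 12 h (SOCS2), and a threshold of 1.5-fold made it 1 higher at 6 h and at 12 h (STAT3). The median change of the members was 0.28 at 3 h with a normexp offset of 1 and 0.39 with the software's log ratio, 0.28 at 6 h with median centring, and 0.0085 with median centring and 0.36 with the software's log ratio at 12 h, against 0.16, 0.41 and 0.22. With the 3 h array as the base, chosen after seeing the data, it was 0.078 at 6 h and 0.017 at 12 h. The cause was not tested. Median centring moved 17 of 27 single member changes by more than 1 technical SD and the values normalized by the authors moved 4 of 27. No paired analysis was possible because the conditions have 1 array each, and no array could be left out for the same reason. Dim members (SOCS1, SOCS7, JAK2) lie close to background, which limits how small a change could be seen.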

Other observations

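The antisense gene SOCS2-AS1 was chosen after its values were seen, because it lies at the SOCS2 locus and both of its probes are outside damaged areas. Both are annotated to NR_038263. On A_33_P3375002 the Cy5 signal was 131 units in untreated cells, 140 units at 3 h, 83.5 units at 6 h and 74 units at 12 h, with log2 changes of -0.10, -0.37 and -0.62. The later arrays were the lower ones. On A_19_P00807670 it was 111, 120, 89 and 95 units, with log2 changes of -0.05, -0.11 and -0.17. In Cy5 alone the 12 h changes were -0.46 on the first and -0.01 on the second probe. With a normexp offset of 1 they were -0.96 and -0.27. With median centring they were -0.79 and -0.32, where the median of all genes was -0.16. In the ratio at 12 h, 4.33% of all genes were at least as low as the first probe and 23.6% as the second. Neither probe of SOCS2-AS1 was higher than in untreated cells in the ratio at 3, 6 or 12 h, whereas the SOCS2 spot read 3.01 higher at 12 h. A probe of an antisense gene measures another transcript and does not check that of SOCS2.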
